A study of Oncorhynchus mykiss with 28 samples.

Results

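The clones described here are 150 spotted cDNAs of rainbow trout whose mean signal in eggs collected after natural ovulation (N) lay farthest from the mean signal after both hormonal induction of ovulation (HI) and photoperiod manipulation (PM). They were chosen from 7865 clones that had a signal above 0 on all 28 arrays and do not appear in the study's 2 gene tables. For each clone, N was compared with HI and with PM on log2 signal after quantile normalization, and the smaller of the 2 differences, called the margin below, was kept. The 75 clones with the largest margin in each direction form the N-higher and the N-lower set. The margin of the N-higher clones is N minus the nearer of HI and PM, and that of the N-lower clones is the nearer of HI and PM minus N. Since the group means chose the clones, the differences between groups are given as a description, without a test. The deposited table identifies clones by library name and position and does not pair them with genes, so no gene, sequence or cell type marker is named.

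Each array was hybridised with RNA from unfertilized eggs of 1 female of an autumn-spawning strain. Ovulation was induced by injection of a GnRH analog in 10 HI females in 2004, was advanced by an artificial light regime in 14 PM females in 2003, and occurred spontaneously in 4 N females in 2003. HI females therefore differ from both N and PM females in year as well as in treatment, and these cannot be told apart. Per the study's methods, PM females had reproduced before and were kept in light-proofed tanks. N and HI females were moved to a recirculated water system ahead of ovulation. Housing and an advanced season therefore go with the PM treatment and cannot be told apart from it. Egg quality, measured as the percentage of normal alevins, was 2 to 95.4% in HI females, 0 to 93.8% in PM females and 95.9 to 98.8% in N females, so that among N females natural ovulation and high egg quality cannot be told apart either.

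The ripe fish egg holds messenger RNAs made by the mother during oogenesis, and early development relies on them until the embryo's own genes are transcribed. Ovulation in trout is triggered by gonadotropins that the pituitary releases under the control of GnRH. A GnRH analog acts on that release directly, whereas day length sets the season of the whole reproductive cycle.

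The deposited signal is relative to the median clone of each array, so 0 on the log2 scale is about the median. The arrays held 8229 to 8547 clones above 0 in the HI group, 8146 to 8655 in the PM group and 8241 to 8626 in the N group. The interquartile range of log2 signal was 1.37 to 1.57, 1.44 to 1.77 and 1.39 to 1.75 on the HI, PM and N arrays. The labels give PM replicate 4 and N replicate 1 an identical female number. When both were left out of the choice, PM replicate 4 scored -0.44 on the new N-lower clones. This score is the median over clones of the female's log2 signal minus the mean of the HI and PM arrays used for the choice. The other 13 PM females, each left out in the same way together with N replicate 1, scored between -0.26 and 0.28, and the 10 HI females between -0.18 and 0.25. N replicates 2, 3 and 4, each left out together with those 2 arrays, scored -0.22, -0.22 and -0.47, while N replicate 1 scored 0.00. PM replicate 4 was thus lower than every other HI or PM female, and N replicate 1 stood among the HI and PM females. N replicates 2 and 3 were also inside the range of the other PM females, and only N replicate 4 was below it. On the new N-higher clones the scores of PM replicate 4 (0.11) and N replicate 1 (0.03) lay within the range of the other PM females (-0.18 to 0.20). This comparison was chosen after the values had been seen, and an exchange of these arrays was not tested. Without both, 44 clones of each set remained members.

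Margins were small for most clones. In the N-higher set they ran from 0.26 to 1.62 with a median of 0.30, and 5 clones exceeded 0.5. In the N-lower set they ran from 0.31 to 0.83 with a median of 0.36, and 10 clones exceeded 0.5. The choice of 75 falls in a continuous series. The clones of rank 74 and 75 in the N-higher set, 1RT134M12_C_G06 and tcay0039.k.06, and those of rank 76 and 77, tcay0038.c.03 and 1RT31E19_A_C10, all had a margin of 0.26. Of the N-lower clones, tcbk0002.l.10 and 1RT24K20_C_F10 were just inside and tcbk0035.n.17 and tcbk0033.i.08 just outside, all with a margin of 0.31.

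The clones with the largest N-higher margins owed them to 1 female. For clone tcay0029.a.22, log2 signal was -2.51 to -1.51 (median -2.0) in HI eggs, -2.18 to -1.72 (median -2.01) in PM eggs, and -1.97, -2.14, -2.15 and 4.83 in N replicates 1 to 4. In deposited units N replicate 4 read 27.8, and the highest reading on any other array was 0.365. The other 3 N females lay inside the HI range, and without N replicate 4 the margin was -0.11 instead of 1.62. Clone tcay0007.l.13 had -1.06 to -0.51 (median -0.78) in HI eggs, -0.91 to -0.33 (median -0.60) in PM eggs, and -0.38, -1.04, -0.57 and 4.29 in N eggs. For tcay0028.p.24 the values were 0.52 to 1.47 (median 1.02) in HI eggs, 0.69 to 1.41 (median 0.90) in PM eggs, and 0.95, 0.98, 0.43 and 5.93 in N eggs. Again the fourth N female alone was above the HI and PM females, and the margins without that female were -0.05 and -0.19. Clone tcay0007.k.07 repeated the pattern, with -0.71 to -0.18 (median -0.43) in HI eggs, -0.67 to -0.26 (median -0.37) in PM eggs, and -0.33, -0.53, -0.46 and 3.08 in N eggs. The names of tcay0007.l.13 and tcay0007.k.07 place them on 1 plate of the library.

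The next group rested on N replicate 1. Clone tcbk0002.e.24 gave -2.03 to -1.55 (median -1.64) in HI eggs, -2.18 to -1.25 (median -1.80) in PM eggs, and 1.31, -0.80, -2.23 and -2.12 in N eggs. Its neighbour by name, tcbk0002.d.24, gave -2.05 to -1.33 (median -1.62) in HI eggs, -2.37 to -1.03 (median -1.81) in PM eggs, and 0.96, -1.77, -1.96 and -2.06 in N eggs. In tcba0023.l.11 the values were -0.43 to 0.08 (median -0.29) in HI eggs, -0.79 to 0.46 (median -0.35) in PM eggs, and 2.51, -0.24, -0.83 and -0.57 in N eggs. N replicate 1 was the highest female of all in each of these 3 clones, and N replicates 3 and 4 were among or below the HI and PM females. Without N replicate 1 their margins were 0.00, -0.29 and -0.33.

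Such jumps were counted over all complete clones as signals more than 2 log2 units above the highest of the other 27 arrays. N replicate 4 held 4 of them and N replicate 1 held 2, all in N-higher clones, and N replicates 2 and 3 held 0. The gap was 6.34 in tcay0029.a.22, 4.62 in tcay0007.l.13, 4.47 in tcay0028.p.24, 3.27 in tcay0007.k.07, 2.11 in tcbk0002.e.24 and 2.05 in tcba0023.l.11. Outside the N group HI replicates 1 and 3 and PM replicates 11 and 13 held 1 each, and none of those clones entered the N-higher set. This membership is largely set by the rule. A jump on an N array raises the N mean, and one on an HI or PM array works against entry. The rule averages 10 HI, 14 PM and 4 N arrays.

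**Figure D1:**
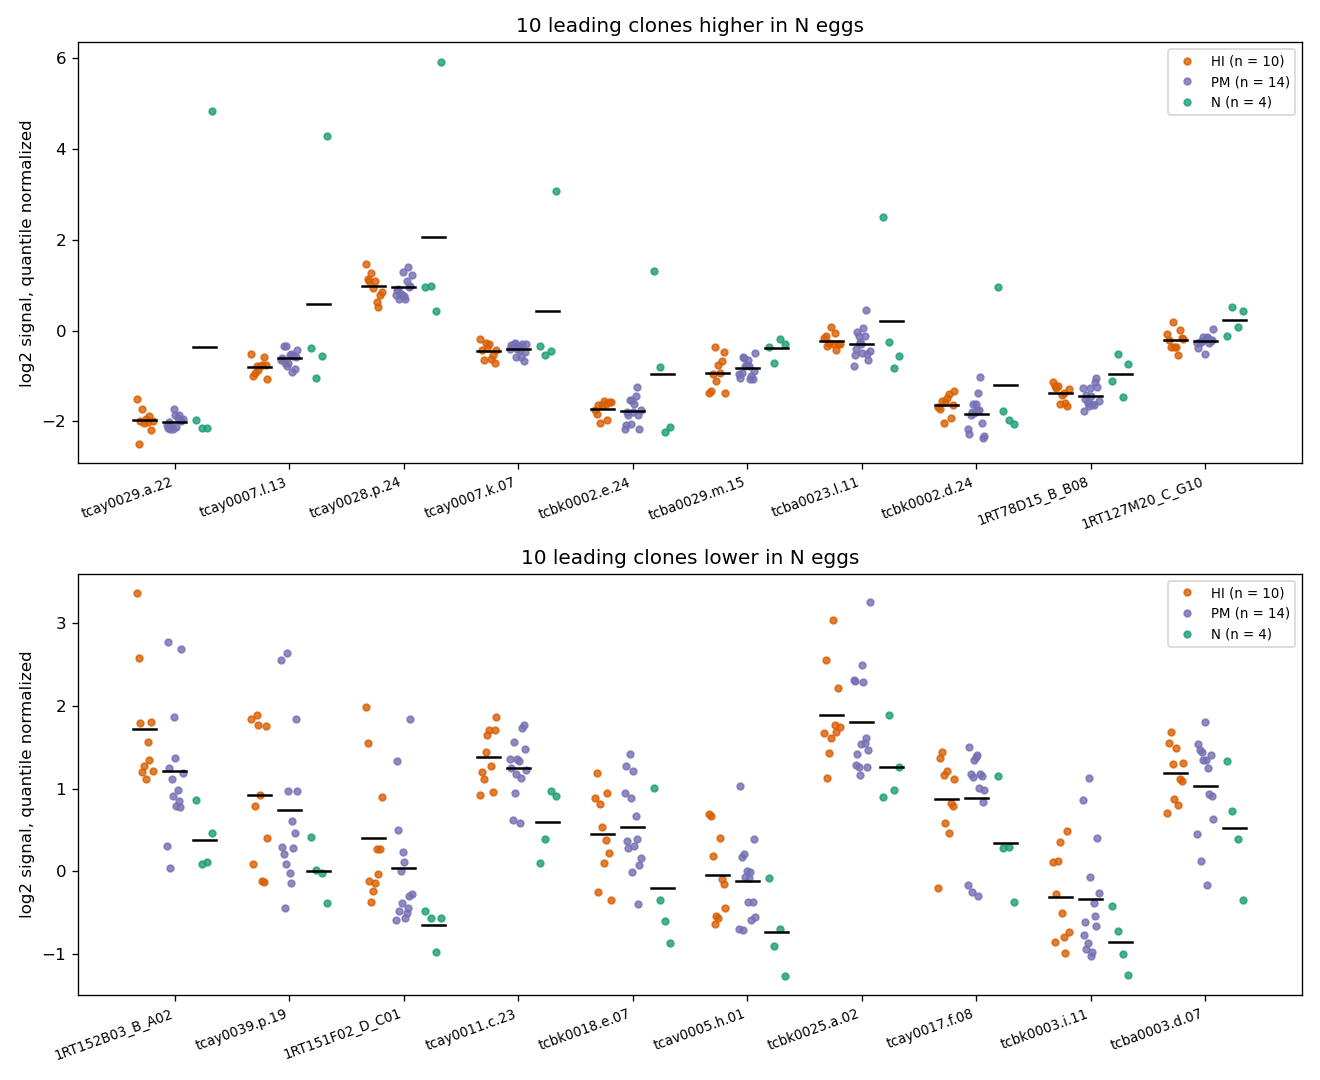
Log2 signal after quantile normalization (vertical axis) of the 10 clones with the largest margin in the N-higher set (top) and in the N-lower set (bottom). Points are females (10 HI, 14 PM, 4 N, from left to right) and bars are group means. In 7 of the 10 N-higher clones a single N point, up to 5.93, stands far above all others. The N-lower clones show a wide spread in HI and PM eggs, with most N points in its lower part. N replicate 1 is above the HI and PM medians in tcbk0018.e.07 (1.01), tcay0017.f.08 (1.15) and tcba0003.d.07 (1.34), and N replicate 2 in tcbk0025.a.02 (1.89).

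The remaining N-higher leaders were raised in several N females. Clone tcba0029.m.15 had -1.38 to -0.37 (median -0.94) in HI eggs, -1.06 to -0.50 (median -0.84) in PM eggs, and -0.36, -0.72, -0.18 and -0.30 in N eggs. N replicates 1, 3 and 4 were above all HI and PM females, N replicate 2 was not, and the margin stayed at 0.37 or more whichever N female was left out. Clone 1RT78D15_B_B08 had -1.67 to -1.14 (median -1.34) in HI eggs, -1.77 to -1.04 (median -1.47) in PM eggs, and -1.11, -0.52, -1.46 and -0.73 in N eggs. Clone 1RT127M20_C_G10 had -0.54 to 0.20 (median -0.20) in HI eggs, -0.52 to 0.03 (median -0.23) in PM eggs, and -0.13, 0.52, 0.07 and 0.42 in N eggs. In both, N replicates 2 and 4 exceeded all other groups, and the other two N females overlapped with HI or PM females.

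Only 1 clone separated the N females from all others. Clone 1RT31J07_B_E04, of rank 20, had -0.71 to 0.24 (median 0.14) in HI eggs, -0.29 to 0.30 (median 0.02) in PM eggs, and 0.37, 0.34, 0.41 and 0.48 in N eggs. The groups did not overlap, although the lowest N female and the highest PM female were separated by little. Its differences were -0.34 for HI minus N and -0.38 for PM minus N, and N eggs varied least (SD 0.28 in HI eggs, 0.19 in PM eggs and 0.06 in N eggs; n = 10, 14 and 4). HI replicate 8, at -0.71, was far below the next HI female (-0.003), and both the HI SD and the HI difference include that array. The clone is named for its 4 N values, which favours a low N SD. Clone 1RT31J07_B_E04 was the only one of 7915 with all 4 N females above all HI and PM females (0.0126%). With 3 of the 4 N females above all others there were 2 further N-higher clones, tcba0029.m.15 and 1RT164N13_B_G07 (3 or 4 N females above, 0.114% of all clones). Clone 1RT164N13_B_G07 had 0.11 to 0.90 (median 0.48) in HI eggs, 0.05 to 0.87 (median 0.57) in PM eggs, and 0.61, 0.97, 0.91 and 1.05 in N eggs, and here N replicate 1 was the female that overlapped. Among the other N-higher clones, 20 had 2 N females beyond all HI and PM females, 38 had 1 and 14 had none. Over all clones, 15.5% had at least 1 N female above all HI and PM females. The rule favours such clones, so nothing is read from these counts. 1RT164N13_B_G07 and the clones with 3 N females beyond the others below are named because of these values.

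The leading N-lower clones showed another pattern than the leading N-higher ones. Their signal varied widely among HI and PM females, and most N females were in the lower part of that spread rather than apart from it. The rule favours both patterns, since high HI or PM females raise those means as a jump on an N array raises the N mean. Clone 1RT152B03_B_A02 had 1.12 to 3.37 (median 1.45) in HI eggs, 0.04 to 2.77 (median 1.05) in PM eggs, and 0.87, 0.09, 0.11 and 0.46 in N eggs. All N females were below all HI females, but PM replicate 4 was the lowest of all 28. Its differences were 1.34 for HI minus N and 0.83 for PM minus N, and 0.83, a 1.77-fold difference, was the largest margin of the set. Clone tcay0039.p.19 had -0.12 to 1.89 (median 0.85) in HI eggs, -0.45 to 2.64 (median 0.38) in PM eggs, and 0.42, 0.02, -0.03 and -0.39 in N eggs. Clone 1RT151F02_D_C01 had -0.38 to 1.99 (median 0.12) in HI eggs, -0.59 to 1.85 (median -0.29) in PM eggs, and -0.48, -0.56, -0.98 and -0.56 in N eggs. In tcay0039.p.19 the N values overlapped with HI and PM values. In 1RT151F02_D_C01 they were below all HI females and overlapped with PM females. A few high females raised the PM mean in tcay0039.p.19, and the HI and PM means in 1RT151F02_D_C01. With group medians in place of means the margins of tcay0039.p.19 and 1RT151F02_D_C01 were 0.38 and 0.27, instead of 0.73 and 0.68.

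Clone tcay0011.c.23 was more even. It had 0.92 to 1.86 (median 1.35) in HI eggs, 0.58 to 1.77 (median 1.30) in PM eggs, and 0.10, 0.39, 0.98 and 0.91 in N eggs. N replicates 1 and 2 were below all HI and PM females and the other two were within the PM range. Clone tcav0005.h.01 had -0.63 to 0.69 (median -0.12) in HI eggs, -0.72 to 1.04 (median -0.08) in PM eggs, and -0.08, -0.91, -0.70 and -1.27 in N eggs. In this clone N replicate 1 stood near the PM median, and PM replicate 4 was the lowest PM female. Clone tcbk0018.e.07 had -0.35 to 1.18 (median 0.46) in HI eggs, -0.39 to 1.42 (median 0.37) in PM eggs, and 1.01, -0.34, -0.61 and -0.87 in N eggs, so N replicate 1 was among the highest females there. The others of the leading 10 were tcbk0025.a.02, tcay0017.f.08, tcbk0003.i.11 and tcba0003.d.07, with margins of 0.51 to 0.55. In each of them at least 1 N female lay inside both the HI and the PM range.

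High and low females recurred across clones. In 1RT152B03_B_A02, 1RT151F02_D_C01 and tcav0005.h.01, HI replicates 1 and 2 and PM replicate 2 were among the highest 5 females. PM replicate 6 was the highest of all females in tcay0039.p.19 and in tcbk0003.i.11, at 2.64 and 1.12, and PM replicate 1 was the second, at 2.56 and 0.86. In tcay0017.f.08 and tcba0003.d.07 the lowest females were N replicate 4 (-0.38 and -0.35) and PM replicate 9 (-0.30 and -0.17), and PM replicates 1 and 4 were also among the lowest 5. Within each of these groups the clones therefore share females that set their means and are not separate observations. The highest females were others in tcay0011.c.23 (HI replicate 11), tcbk0018.e.07 (PM replicate 5) and tcbk0025.a.02 (PM replicate 14). HI replicate 2 was still among the highest 5 in tcbk0018.e.07 and tcbk0025.a.02.

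No clone had all 4 N females below all HI and PM females, in the set or among all 7915 (0%). In 6 N-lower clones 3 N females were below all others, against 0.126% of all clones with 3 or 4. They were tcba0030.p.13, 1RT147H19_B_D10, tcad0006.c.17, tcay0008.e.17, 1RT47J08_D_E04 and tcay0027.n.06. Clone tcad0006.c.17 was the brightest of them and had the tightest N values, with 3.31 to 3.96 (median 3.64) in HI eggs, 3.23 to 3.75 (median 3.46) in PM eggs, and 3.07, 3.13, 2.96 and 3.24 in N eggs. Clone tcay0008.e.17 had 0.82 to 1.36 (median 1.11) in HI eggs, 0.67 to 1.51 (median 1.01) in PM eggs, and 0.56, 0.56, 0.58 and 0.95 in N eggs. In both clones 1 N female (replicate 4) overlapped with the others. Clone tcba0030.p.13 had -0.38 to 0.24 (median -0.04) in HI eggs, -0.21 to 0.37 (median 0.06) in PM eggs, and 0.02, -0.57, -0.72 and -0.48 in N eggs, and N replicate 1 was the female at the HI and PM level. The group ranges overlapped in each of these 6 clones through 1 N female. Another 15 N-lower clones had 2 N females below all others, 29 had 1 and 25 had none (15.4% of all clones had at least 1).

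Without PM replicate 4 and N replicate 1, the 3 remaining N females were above the remaining 23 HI and PM females in 2 N-higher clones (0.0379% of all clones), 1RT164N13_B_G07 and 1RT31J07_B_E04. They were below them in 3 N-lower clones (0.0379% of all clones), tcav0005.h.01, tcba0030.p.13 and 1RT147H19_B_D10. In tcav0005.h.01, PM replicate 4 (-0.72) was at the level of the N females and N replicate 1 (-0.08) was not. In 1RT147H19_B_D10, however, PM replicate 4 (0.89) was at the opposite end from them, and in tcba0030.p.13 both PM replicate 4 (0.03) and N replicate 1 (0.02) were at the HI and PM level.

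Measured against the HI and PM means, all 4 N females were higher in 31 of the 75 N-higher clones (3.75% of all clones), 3 in 32, 2 in 9 and 1 in 3. All 4 N females were lower in 41 of the 75 N-lower clones (3.26% of all clones) and 3 in the other 34. The farthest N female was replicate 4 in 27 and replicate 2 in 24 of the N-higher clones, against 13 for replicate 1 and 11 for replicate 3. In the N-lower clones it was replicate 3 in 24, replicate 4 in 20, replicate 1 in 17 and replicate 2 in 14. When each N female was left out in turn, the lowest margin of an N-higher clone ranged from -0.33 to 0.37, and it was at or below 0 in 11 clones. For N-lower clones it ranged from 0.10 to 0.73 and was at or below 0 in none. The remaining N females and the HI and PM means also chose these clones, so a margin above 0 is largely fixed by the rule. The rule likewise favours N females beyond both means, so nothing is read from the counts in this paragraph.

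**Figure D2:**
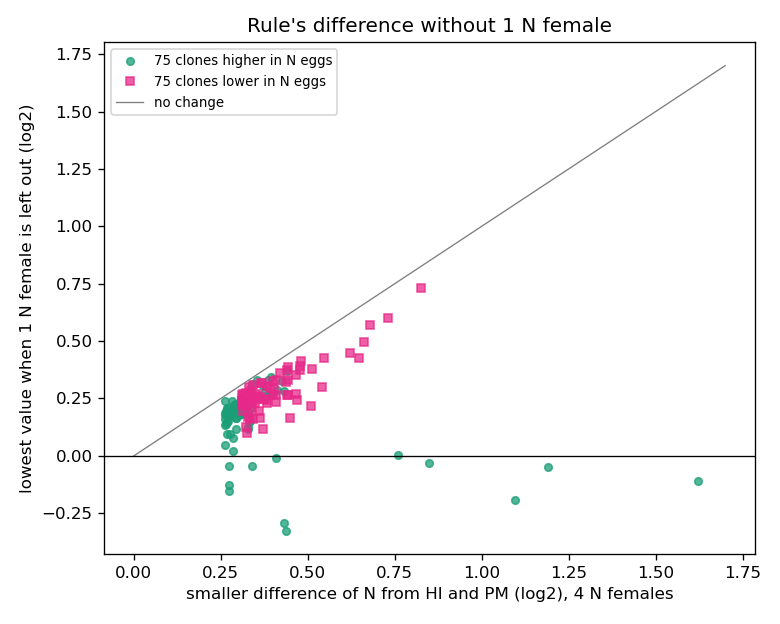
Lowest margin when 1 of the 4 N females is left out (vertical axis, log2) against the margin with all 4 (horizontal axis, log2), for the 75 N-higher clones (circles) and the 75 N-lower clones (squares). The grey line marks no change. The 5 N-higher clones with margins over 0.5 drop to about 0 or below, from -0.19 to 0.00, and the N-lower clones stay above 0. The remaining females also chose the clones, so staying above 0 is largely fixed by the rule.

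How far the choice depends on the females it was made on was examined by choosing 75 clones again without each female and then reading that female's score on them. With the N-higher clones chosen on all females, scores were -0.04 to 0.13 for HI, -0.13 to 0.14 for PM and 0.23 to 0.46 for N females. With clones chosen without the female scored, they were -0.02 to 0.18 for HI females and -0.11 to 0.16 for PM females, and 0.02, -0.01, -0.10 and 0.05 for N replicates 1 to 4. Every N female then lay inside the range of the PM females. The N-lower scores on all females were -0.17 to 0.19 for HI, -0.27 to 0.15 for PM and -0.56 to -0.38 for N females. With the female left out, they were -0.20 to 0.19 for HI females and -0.35 to 0.13 for PM females, and 0.01, -0.15, -0.05 and -0.15 for N females. Here too each N female was inside the PM range. Although 3 of the 4 were below 0, the median was -0.10 for N and -0.12 for PM females (0.01 for HI). A score below 0 therefore does not set N females apart. Between 38 and 45 N-higher and between 39 and 45 N-lower clones remained in their set when 1 N female was left out, against 63 to 73 and 64 to 73 when 1 HI or PM female was.

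The share of newly chosen clones in which the left-out N female was beyond both the HI and PM means was 24 to 52% for N-higher clones, where 39.0 to 43.8% of all clones lay that side in the same females. For N-lower clones it was 41.3 to 64%, against 38.6 to 42.2% of all clones. Left-out PM females ranged from 26.7 to 65.3% on N-higher and from 32 to 73.3% on N-lower clones (37.4 to 45.2% and 38.6 to 42.9% of all clones). Left-out HI females ranged from 46.7 to 80% and from 26.7 to 68% (36.6 to 42.1% and 39.7 to 44.8% of all clones). On N-higher clones N replicate 3, at 24%, was below every left-out HI and PM female. At 45.3, 42.7 and 52%, N replicates 1, 2 and 4 lay inside the PM range, and only replicate 4 inside the HI range. On N-lower clones the N shares lay inside the HI and the PM range. For N replicates 1 to 4 the N-lower shares were 41.3, 64, 50.7 and 60%, so N replicate 1 was the closest to the share of all clones.

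**Figure D3:**
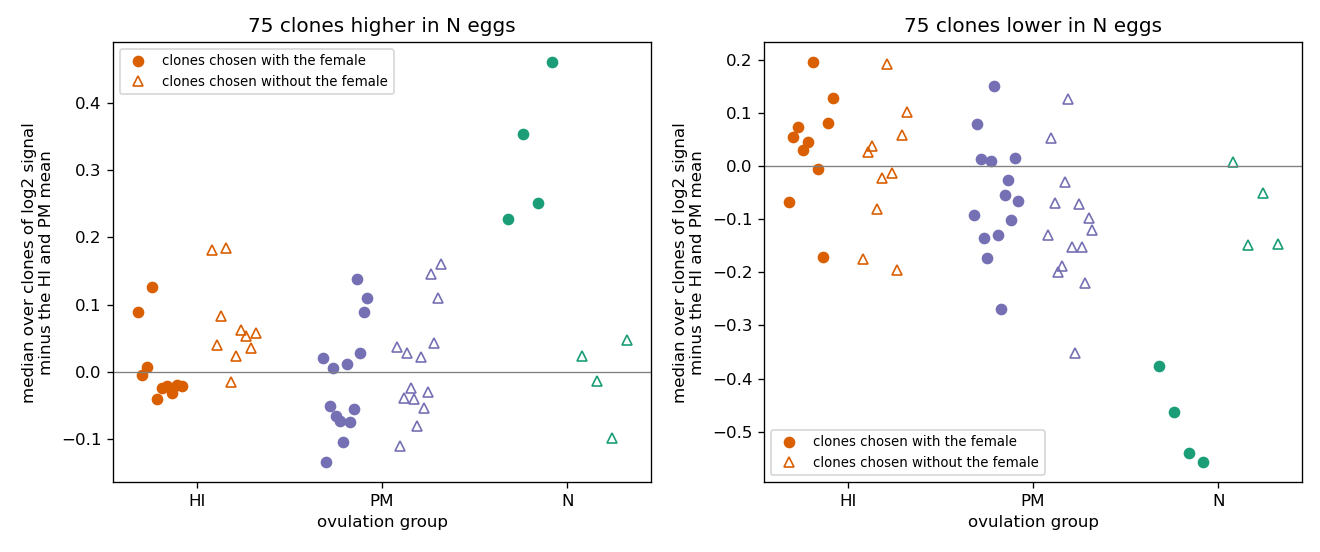
Score of each female, the median over clones of log2 signal minus the HI and PM mean, for the N-higher set (left) and the N-lower set (right), by ovulation group (HI, PM, N). Filled circles use clones chosen with the female and open triangles use clones chosen without the female. The N females stand apart as circles (0.23 to 0.46 and -0.56 to -0.38) and overlap with PM females as triangles.

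The 2 sets also differed in properties that the rule did not use directly. N-higher clones were dim, with a median mean signal of -0.46, and N-lower clones were bright, with a median of 0.50, against -0.09 for all complete clones. With all clones split by mean signal into 4 equal parts, from the dimmest to the brightest, 27, 26, 15 and 7 N-higher clones and 10, 12, 22 and 31 N-lower clones were counted. Median SD between females was 0.23 in HI, 0.26 in PM and 0.29 in N eggs for N-higher clones. It was 0.34, 0.39 and 0.32 for N-lower clones, and 0.21 in each group for all complete clones. A rule that ranks unscaled differences of means favours clones that vary more between females, and jumps on N arrays raise the N SD. Nothing is therefore read from the larger SD. Clones of the 1RT library made up 44% of the N-higher and 24% of the N-lower set, and 36.2% of all complete clones, while those of the tcay library made up 13.3, 25.3 and 16.6%. At most 3 members of a set came from 1 plate, out of 329 plates.

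The rule favours clones in which HI and PM eggs differ little, since it keeps the smaller difference. Without regard to sign, the median difference of HI and PM was 0.060 in N-higher clones and 0.085 in N-lower clones. It was 0.101 in all complete clones, so the N-lower clones were only slightly closer than clones in general. The median of HI minus PM was 0.02 in N-higher clones, 0.07 in N-lower clones and -0.01 in all complete clones. HI exceeded PM in 59 of the 75 N-lower clones and in 46 of the 75 N-higher clones (48.1% of all clones), and the extremes were 1.00 in the N-lower and -0.43 in the N-higher set.

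Because all N females gave good eggs, N was next set beside only those HI and PM females with at least 80% normal alevins (5 HI, 4 PM, 4 N). N stayed on the same side of both groups in 72 N-higher and 73 N-lower clones, and at least 0.5 of the margin was kept in 60 and 61. For N-higher clones the median of HI minus N was -0.37 and that of PM minus N was -0.25, against -0.33 and -0.34 with all females. For N-lower clones they were 0.46 and 0.44, against 0.47 and 0.37. Over all clones N lay above both of these groups in 31.1% and below both in 26.1%. The rule used these same arrays, so the side that N kept is largely fixed by it, and when 75 clones were chosen again on these females alone, 34 N-higher and 42 N-lower clones remained.

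Within the groups of controlled ovulation, the relation of each clone to egg quality was tested by regressing log2 signal on normal alevins, with the slope given per 10 percentage points. This slope does not use the group means. HI females gave 2 to 39.8% or 89.5 to 95.4% normal alevins, with none between, so the HI slope rests on separated ranges. No member, and no clone of 7915, passed a Benjamini-Hochberg adjusted p of 0.05 in limma, within HI, within PM, over both or for the difference of the slopes (0% in each case). The lowest adjusted p of any member was 0.57 within HI, 0.12 within PM and 0.62 over both. Unadjusted counts are given below as a description beside the share of all clones.

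In PM eggs most N-higher clones had a positive slope, and in HI eggs most had a negative one, none past the adjusted threshold. The slope within PM was positive in 53 of 75 N-higher clones (47.8% of all clones). It had an unadjusted p under 0.05 in 13, all positive (7.13% of all clones positive, 6.17% negative). Within HI it was positive in 25 (50.4% of all clones), with 0 positive and 2 negative at that level (3.58% and 3.06% of all clones). Negative slopes within HI together with positive slopes within PM were seen in 39 N-higher clones (28.2% of all clones). The PM slope minus the HI slope was positive in 56 (49.96% of all clones). It had an unadjusted p under 0.05 in 14 positive and 1 negative (6.24% and 7.48% of all clones). The clones share females and their signals are not independent. The positive count within PM ranged from 8 without PM replicate 14 to 18 without PM replicate 10. Over the fits without 1 array, 5.55 to 8.45% of all clones were positive at that level. The count was 15 without PM replicate 4 (7.88% of all clones). With eyed embryos as the measure of quality 9 were positive and 3 negative (4.78% and 3.95% of all clones), and the negative share was close to that of all clones. In median over the set, the 4 PM females with at least 80% normal alevins scored 0.03 to 0.14 and the other 10 scored -0.13 to 0.02. The HI females did not follow that order, with -0.03 to -0.02 in the 5 good and -0.04 to 0.13 in the 5 poor ones.

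**Figure D4:**
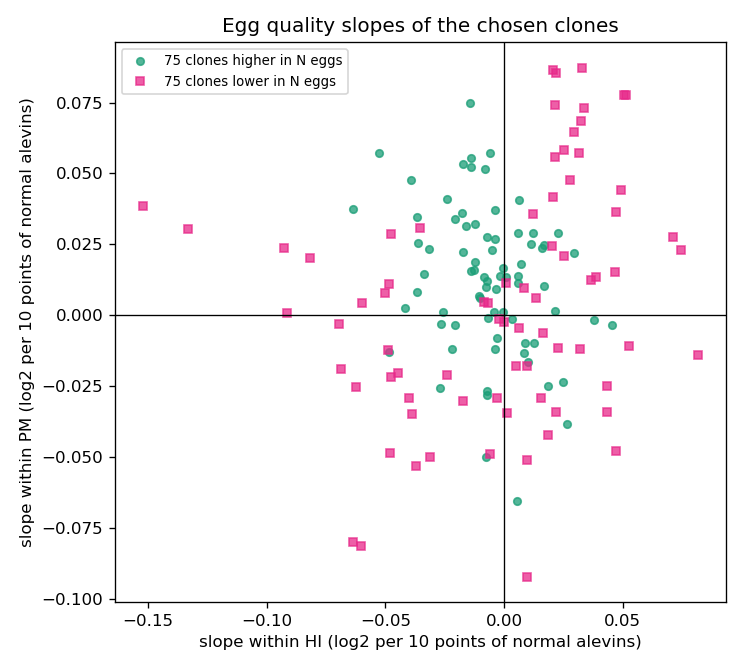
Slope of log2 signal per 10 percentage points of normal alevins within PM (vertical axis) against that within HI (horizontal axis) for the 75 N-higher clones (circles) and the 75 N-lower clones (squares). The upper left field, with a negative slope within HI and a positive slope within PM, holds 39 N-higher clones. No slope passed the adjusted threshold.

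Clone 1RT49F13_B_C07 had the steepest N-higher slope within PM. Its signal was -1.37 to -0.82 (median -0.95) in PM females under 80% normal alevins and -0.58 to -0.26 (median -0.45) in the 4 above, and these did not overlap. In HI females it was -0.89 to -0.60 (median -0.78) under 80% and -1.22 to -0.61 (median -0.82) above. N eggs gave -1.10, -0.33, -0.47 and -0.13, so that N replicates 2 to 4 were at or above the level of the good PM eggs and N replicate 1 was below them. The slope was 0.075 ± 0.017 within PM (SE, limma adjusted p = 0.12) and -0.014 ± 0.020 within HI (SE, limma adjusted p = 0.914). Clone 1RT49H04_D_D02 had a slope within PM of 0.057 ± 0.016 (SE, limma adjusted p = 0.157), with -1.95 to -1.39 in the poorer and -1.33 to -1.02 in the better PM eggs, and -1.47, -0.73, -1.32 and -0.88 in N eggs. For 1RT107I13_A_E07 the poorer PM eggs gave -1.03 to -0.68 and the better ones -0.48 to -0.27. The lowest value in good PM eggs was above the highest in poor PM eggs in all 3 clones. They were named for a low slope p, which favours such a gap. Its share over all clones was not counted, so nothing is read from it. Within HI, tcay0028.p.24 had a negative slope of -0.064 ± 0.018 (SE, limma adjusted p = 0.57), and 1RT70F23_B_C12 one of -0.053 ± 0.024 (SE, limma adjusted p = 0.711). Both had positive slopes within PM, of 0.038 and 0.057.

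The N-lower clones showed slopes of both signs. Over HI and PM together 13 were positive and 5 negative at an unadjusted p under 0.05 (3.26% and 2.86% of all clones). Leaving out 1 array moved the positive count to between 11 and 16 (2.21 to 4.61% of all clones). The negative count moved to between 5 and 12, the last without PM replicate 4 (3.46% of all clones). With the replicate number as a block, on the 20 arrays that share numbers, the counts were 3 positive and 6 negative (4.11% and 2.73% of all clones). The positive count with the block was thus close to the share of all clones. On the same arrays without the block the counts were 10 and 6, where 428 of all 7915 clones, of either sign, were under that p. The numbers rank females by egg quality within each group. The block therefore takes up part of the quality gradient, and nothing is read from that change. Within PM the counts were 12 positive and 8 negative (7.13% and 6.17% of all clones), and within HI 4 and 4 (3.58% and 3.06% of all clones), where both are close to the share of all clones. Within HI they are open to single arrays, since the positive count was 1 without HI replicate 11 and 9 without HI replicate 9. Over the fits without 1 array, 1.48 to 4.88% of all clones were positive at that level within HI. Clone tcad0004.e.13 had the lowest p over both groups. It gave 1.65 to 2.08 (median 1.88) in HI eggs under 80% and 1.67 to 2.20 (median 2.11) in HI eggs above, 1.15 to 1.95 (median 1.61) in the poorer and 2.14 to 2.47 (median 2.31) in the better PM eggs, and 0.97, 1.55, 1.22 and 1.76 in N eggs. Good PM eggs had the highest median, and N eggs, of still higher quality, were at or below the level of poor PM eggs. Its slope was 0.064 ± 0.016 over both groups (SE, limma adjusted p = 0.624). Clone 1RT165A10_C_A05, a bright clone, had the same order in PM and N eggs, with 3.41 to 4.22 in the poorer and 4.12 to 4.83 in the better PM eggs, and 3.63, 3.82, 3.36 and 3.82 in N eggs. In both clones the relation to quality within PM and the difference of N from PM ran in opposite directions.

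Clone 1RT147H19_B_D10 went the other way. Signal was 0.28 to 0.98 (median 0.37) in the poorer and 0.14 to 0.61 (median 0.34) in the better HI eggs, 0.27 to 0.89 (median 0.39) in the poorer and -0.01 to 0.31 (median 0.08) in the better PM eggs, and 0.38, -0.15, -0.06 and -0.26 in N eggs. Its slope of -0.042 ± 0.012 over both groups (SE, limma adjusted p = 0.724) ran in the direction of the low N values, with N replicate 1 as the exception. Clone tcad0008.l.11 fitted a slope of -0.092 ± 0.021 within PM (SE, limma adjusted p = 0.12) and 0.010 ± 0.024 within HI (SE, limma adjusted p = 0.952). Good PM eggs gave -0.11 to 0.16 in that clone and N eggs gave 0.73, 0.25, -0.15 and -0.01. Within HI, the lowest p belonged to tcay0012.a.03, with a slope of 0.082 ± 0.027 (SE, limma adjusted p = 0.613), and to 1RT47J08_D_E04, with -0.082 ± 0.029 (SE, limma adjusted p = 0.63). Their slopes within PM were -0.014 and 0.020. After tcad0008.l.11, the lowest p within PM among N-lower clones belonged to 1RT165A10_C_A05, at 0.086 ± 0.020 (SE, limma adjusted p = 0.121).

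**Figure D5:**
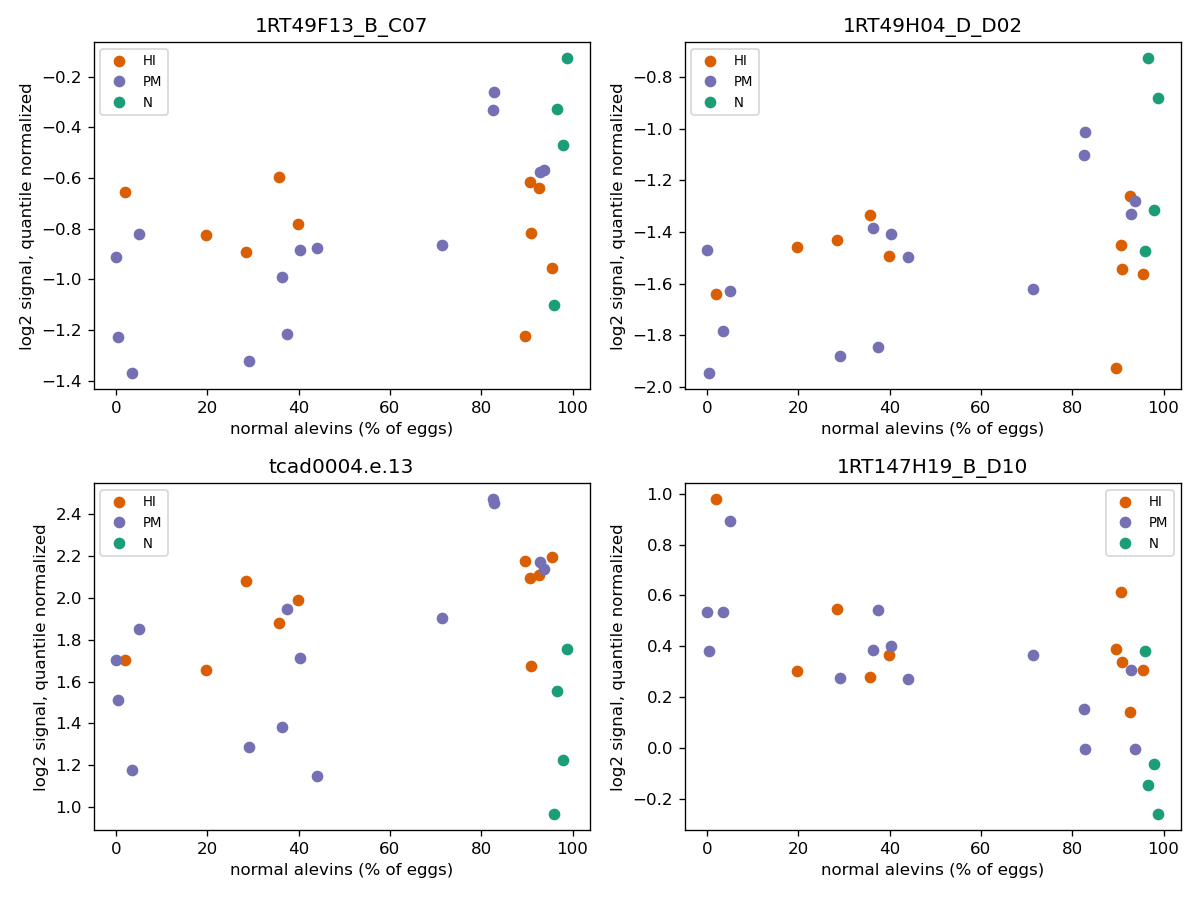
Log2 signal after quantile normalization (vertical axis) against the percentage of normal alevins (horizontal axis) in HI, PM and N females for 4 clones with low p for a quality slope. In the N-higher clones 1RT49F13_B_C07 and 1RT49H04_D_D02 good PM eggs are above poor ones. In the N-lower clone tcad0004.e.13 good PM eggs reach the highest values (2.14 to 2.47) and N eggs lie below them (0.97 to 1.76), and in 1RT147H19_B_D10 good PM eggs and 3 of the 4 N eggs are low.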

How the data were processed

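The deposited table holds array intensities, linear and relative to each array. Per the study's methods, the authors read radioactivity from nylon cDNA arrays by phosphorimaging, excluded poorly spotted features by a vector oligonucleotide hybridisation, used that hybridisation to adjust for spotted DNA, and expressed every value relative to its array median. Of 9216 rows, 193 that are not clones were left out. Of the 9023 clones, 7915 had a value above 0 on every array and were used, and 1108 with a 0 on at least 1 array were not (6.59% of clone values were 0). What a 0 marks was not tested. Values were taken to log2 without a pseudocount and quantile normalized with limma 3.58.1 in R 4.3.3. The 50 complete clones of the study's 2 gene tables stayed in the fits and were not eligible as members.

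Quality slopes were fitted over the 24 HI and PM arrays with limma (lmFit, eBayes), with a mean and a slope per group, or a common slope, and adjusted over 7915 clones (Benjamini-Hochberg, two-sided). The study's own program, SAM, was not used here. The code was tested on simulated data. N females span too narrow a range of quality for a slope. Each array is labelled as 1 female (PM replicate 4 and N replicate 1 share a female number), and the number of arrays limits the precision. Replicate numbers rank females by egg quality and pair no arrays. Named clones are the 10 with the largest margin in each set, the 2 on either side of rank 75, the 3 with the lowest p for the slope over both groups, the 2 with the lowest within HI and within PM, and those whose 4 N values lay beyond all others. Members and tests were chosen with earlier results of these data known. Alternatives covered scaling, filters, medians, weights, quality measures, covariates, the replicate block and leaving out arrays. Figures were drawn with matplotlib 3.10.9.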

Additional observations from a re-analysis of the deposited data

Results flagged for a closer look

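Among the named clones, the HI and N groups were checked for a single female far from the others, by Dixon's criterion. The PM group was not checked. Such a female was found in 11 of 78 clone and group combinations, and chance meets the criterion in about 1 of 20 groups. Most of these clones were chosen for extreme N means, which favours a single extreme N female (8 of the 11), so the count is not set against chance. In 5 of them N replicate 4 was the high one, at 4.83 for tcay0029.a.22 (nearest other N female -1.97), 4.29 for tcay0007.l.13 (nearest -0.38), 5.93 for tcay0028.p.24 (nearest 0.98), 3.08 for tcay0007.k.07 (nearest -0.33) and 0.086 for 1RT107I13_A_E07 (nearest -0.35). N replicate 1 was high at 0.96 for tcbk0002.d.24 (nearest -1.77) and low at -3.10 for tcbk0035.n.17 (nearest -2.57). N replicate 3 was low at -0.98 for 1RT151F02_D_C01 (nearest -0.56). Among HI females, replicate 4 was low at -1.13 for tcay0038.c.03 (nearest -0.37) and at -2.90 for tcbk0035.n.17 (nearest -2.53), and replicate 8 was low at -0.71 for 1RT31J07_B_E04 (nearest 0.00).

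Over the complete clones, the deviations of PM replicate 4 and N replicate 1 from their group means, the 2 arrays with the same female number, correlated at -0.40, as a description across clones, which are not independent.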

How the results depend on the processing

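Of the 75 N-higher clones, 20 remained when only clones brighter than the array median were eligible, 35 with group medians, 39 with a replicate block, 45 with normal alevins as a covariate, 34 with HI and PM females of at least 80% normal alevins and 44 without PM replicate 4 and N replicate 1. Of the 75 N-lower clones, 47, 38, 39, 42 and 44 remained under the same settings from group medians on, and 50 under the brightness limit. That limit leaves the group means unchanged, so every bright member stays and every dim one is lost. Its counts of 20 and 50 are only the numbers of bright members and do not measure stability. On the deposited scale, with arrays scaled to 1 median absolute deviation and with clones of at least 20 values, 57 to 70 remained. Leaving out 1 array kept 38 to 73 N-higher and 39 to 73 N-lower clones, and the lowest numbers came without N replicate 4 and N replicate 3. Quality slopes passed adjustment in 0 clones within HI, except 3 with eyed embryos and 1 with malformations as the measure. Within PM they passed in 13 clones with array weights, among them 1RT49F13_B_C07 and 1RT165A10_C_A05 (limma adjusted p = 0.0464 each), in 2 with malformations, and in 0 to 1 when 1 array was left out (1 without PM replicate 2). Over both groups the count was 0 in every setting, the replicate block included. The numbers do not pair the arrays: 18 same-numbered pairs had correlations of -0.34 to 0.22, and 4 were over 0.1. They rank females by egg quality within each group, so a block on them overlaps with quality in the slopes. In the choice of clones the block sets the N females beside HI and PM females of low egg quality. Neither block result is read as a measure of stability. On the 20 HI and PM arrays that share numbers, the block moved the count at an unadjusted p under 0.05 to 541 clones, from 428 without it. Of the alternatives for the margins of named clones, 4 moved by more than the SD of the 4 N values and 1015 did not. That SD includes the single jumps of the leading N-higher clones. In tcay0029.a.22 the fall from 1.62 to -0.11 without N replicate 4 therefore counted as unmoved, so the count does not show stable margins. The cause of these changes was not tested. Signal over background is not known from the values, so whether dim clones are above it cannot be said.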
